A study of Mus musculus with 6 samples.

Results

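CXC chemokines are secreted proteins that direct the movement of leukocytes, and 9 of their genes were examined in mouse muscle: Cxcl1, Cxcl2, Cxcl3, Cxcl5, Cxcl9, Cxcl10, Cxcl12, Cxcl14 and Cxcl16. They were taken by gene symbol, all 9 were found, and each had reads, among 52110 named gene lines. The RNA came from muscle of wild-type mice of the strain given as c57b6l, sequenced in 6 libraries. In 3 libraries the agent was click and in 3 it was EDC. The labels do not say what either agent consists of, how it was given, or the time, dose or age. Neither group is labelled as untreated, so every difference is given as click relative to EDC, and no level in untreated muscle can be set beside it. The members divide by role into 4 neutrophil attractants (Cxcl1, Cxcl2, Cxcl3, Cxcl5), 2 interferon-induced ligands (Cxcl9, Cxcl10) and 3 homeostatic or other ligands (Cxcl12, Cxcl14, Cxcl16).

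The neutrophil attractants carry a glutamate-leucine-arginine motif before their paired cysteines and act on the receptor Cxcr2, which draws neutrophils out of blood into inflamed tissue. Their genes are switched on by interleukin 1, tumour necrosis factor and bacterial products through NF-kB, and their mRNAs are short-lived. Cxcl9 and Cxcl10 lack that motif, are induced by interferons, and call activated T and NK cells through Cxcr3. Cxcl12 is made by stromal and endothelial cells without stimulation and retains cells that carry Cxcr4.

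The neutrophil attractants lie together with the platelet chemokine genes Pf4 and Ppbp and with Cxcl15 in a 146.6 kb stretch of chromosome 5. Cxcl9, Cxcl10 and Cxcl11 form a second group of 44.1 kb on the same chromosome, 1415.4 kb beyond Cxcl2. In mm10 coordinates of the GENCODE M21 annotation, Cxcl5 runs from 90759360 to 90761624, Cxcl3 from 90786103 to 90789600, Cxcl1 from 90891241 to 90893115 and Cxcl2 from 90903871 to 90905938, all on the plus strand of chromosome 5. On the minus strand of that chromosome, Cxcl9 runs from 92321347 to 92328079 and Cxcl10 from 92346638 to 92348889. Cxcl12 is on chromosome 6 from 117168535 to 117181367 (plus strand), Cxcl14 on chromosome 13 from 56288643 to 56296551 (minus strand), and Cxcl16 on chromosome 11 from 70453983 to 70459984 (minus strand). All 9 are annotated as protein-coding. Cxcl10 lies in a region that Art3 covers on the opposite strand, and Cxcl16 overlaps Zmynd15. Whether reads were counted by strand is not stated, so reads from an overlap cannot be told apart by gene. Art3 held 1603 to 2649 reads in a library and Zmynd15 held 8 to 201. Cxcl2 and Cxcl3 transcripts had 126 stretches of 50 bases in common, 5.84% of those of Cxcl2 and 3.51% of those of Cxcl3, so reads from such stretches could be assigned to either gene. No other pair of members had a common stretch of that length.

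Upstream sequences are shown for Cxcl1, Cxcl2 and Cxcl3, which, like Cxcl5, were high and low in the same libraries. They end at the base before the RefSeq start (GRCm38.p6, from RefSeq), and capitals mark a kB motif, a form of the letters that NF-kB is known to bind. Cxcl10 is also shown, with capitals for the core of the interferon-stimulated response element. Promoters of 7 of the 9 members were matched. Those of Cxcl5 and Cxcl16 were not available and were not searched.
Cxcl1, chr5:90891095-90891244 (plus strand): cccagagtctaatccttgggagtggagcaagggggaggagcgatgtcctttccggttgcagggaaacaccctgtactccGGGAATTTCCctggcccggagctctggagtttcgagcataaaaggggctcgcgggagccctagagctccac
Cxcl2, chr5:90903749-90903898 (plus strand): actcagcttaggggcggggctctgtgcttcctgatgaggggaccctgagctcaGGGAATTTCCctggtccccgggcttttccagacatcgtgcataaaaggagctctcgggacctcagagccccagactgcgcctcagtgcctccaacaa
Cxcl3, chr5:90785951-90786100 (plus strand): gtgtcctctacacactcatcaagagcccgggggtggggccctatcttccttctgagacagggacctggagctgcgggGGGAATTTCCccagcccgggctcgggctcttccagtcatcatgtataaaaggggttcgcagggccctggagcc
Cxcl10, chr5:92348890-92349139 (minus strand): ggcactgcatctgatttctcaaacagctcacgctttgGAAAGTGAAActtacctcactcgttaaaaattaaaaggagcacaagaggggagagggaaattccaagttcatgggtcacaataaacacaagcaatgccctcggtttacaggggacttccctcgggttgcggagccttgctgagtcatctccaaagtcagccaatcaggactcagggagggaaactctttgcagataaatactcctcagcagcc

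The kB letters in capitals, searched on both strands, began 71 bases before the start in Cxcl1, 97 in Cxcl2 and 73 in Cxcl3. It was found in the 250 bases before the start in 28 of 32851 mouse promoters, 0.0852%. The other 4 matched members had no match to these letters in that window. Only this exact spelling was searched, and other spellings that NF-kB binds were not. The Cxcl10 sequence above holds, in lower case, stretches that differ from it in few letters. The search therefore does not set Cxcl10 apart from the attractants in kB motifs. The response element core (the capitals in Cxcl10, any base allowed at the middle positions), also searched on both strands, was found 213 bases before the start of Cxcl10 and 172 bases before that of Cxcl14, and in 2.98% of all promoters. A match describes the letters only and is no evidence that a factor binds there.

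Depth was similar in the 6 libraries, with 34472421 to 39305779 reads in total. Levels are in CPM, the share of a gene in the library's reads after TMM scaling. At this depth, 0 reads allow a level of up to 0.109 CPM (3 reads, counting error only). Skeletal muscle genes made up 62400 to 142000 CPM over the 8 markers in each library, and of 6 skin markers Krt10 had 47 to 81 reads in each library, Krt5 had 12 reads in EDC replicate 3 only, Krt14 had 5 in click replicate 3 only, and Krt1, Krt15 and Lor had 0 in all. The libraries differed in more than the agent. Replicate 1 of each group held reads of Xist and the other 4 libraries held reads of the Y-linked Ddx3y. Reads of mt-Atp6 relative to those of Gm10925, its nuclear copy, split the libraries into a high class (click replicate 2, EDC replicate 1 and EDC replicate 3; ratios of 0.927 to 0.937) and a low class (the remaining 3; ratios of 0.162 to 0.166). Mitochondrially encoded genes took 18.9% to 30.2% of reads in click and 14.8% to 17.9% in EDC. The labels do not say how the animals were housed or processed together.

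Neutrophil attractants were well above the detection limit in 2 of the 3 EDC libraries and close to it in the other 4 libraries. Cxcl5, a ligand of Cxcr2 made by stromal, epithelial and endothelial cells, had 2, 0 and 0 reads in click replicates 1 to 3 and 366, 4 and 1703 reads in EDC replicates 1 to 3. In CPM these are 0.0724, 0 and 0 in click, and 8.38, 0.111 and 33.9 in EDC. EDC replicate 3 was highest, EDC replicate 1 followed, and EDC replicate 2 lay just above the click libraries. Over the summed reads of each group, Cxcl5 was 754 times higher in EDC, with a 95% counting interval of 208 to 6230 that leaves out the spread between animals.

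Cxcl1, the mouse counterpart of the growth-related oncogene chemokine, had 3, 0 and 6 reads in click and 178, 9 and 280 reads in EDC. The mean was 0.0868 ± 0.0783 CPM in click against 3.30 ± 2.75 CPM in EDC (SD, n = 3). The click values (0.109, 0 and 0.152 CPM) were all below the EDC values (4.08, 0.249 and 5.57 CPM), but EDC replicate 2 was far nearer to click than to the other EDC libraries. Cxcl2, also called macrophage inflammatory protein 2, had 9, 0 and 13 reads in click and 167, 7 and 529 in EDC. The mean was 0.218 ± 0.189 CPM in click against 4.85 ± 5.24 CPM in EDC (SD, n = 3), and the groups overlapped because EDC replicate 2 (0.194 CPM) was below click replicates 1 and 3 (0.326 and 0.329 CPM). Cxcl3, a close relative of Cxcl2, had 0, 0 and 3 reads in click and 69, 9 and 125 reads in EDC. Its level was 0, 0 and 0.0759 CPM in click against 1.58, 0.249 and 2.49 CPM in EDC, with no overlap. The ratio of EDC to click over summed reads was 37.7 for Cxcl1 (counting interval 19.7 to 83.0), 23.2 for Cxcl2 (15.2 to 37.3) and 49.2 for Cxcl3 (16.6 to 241).

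**Figure D1:**
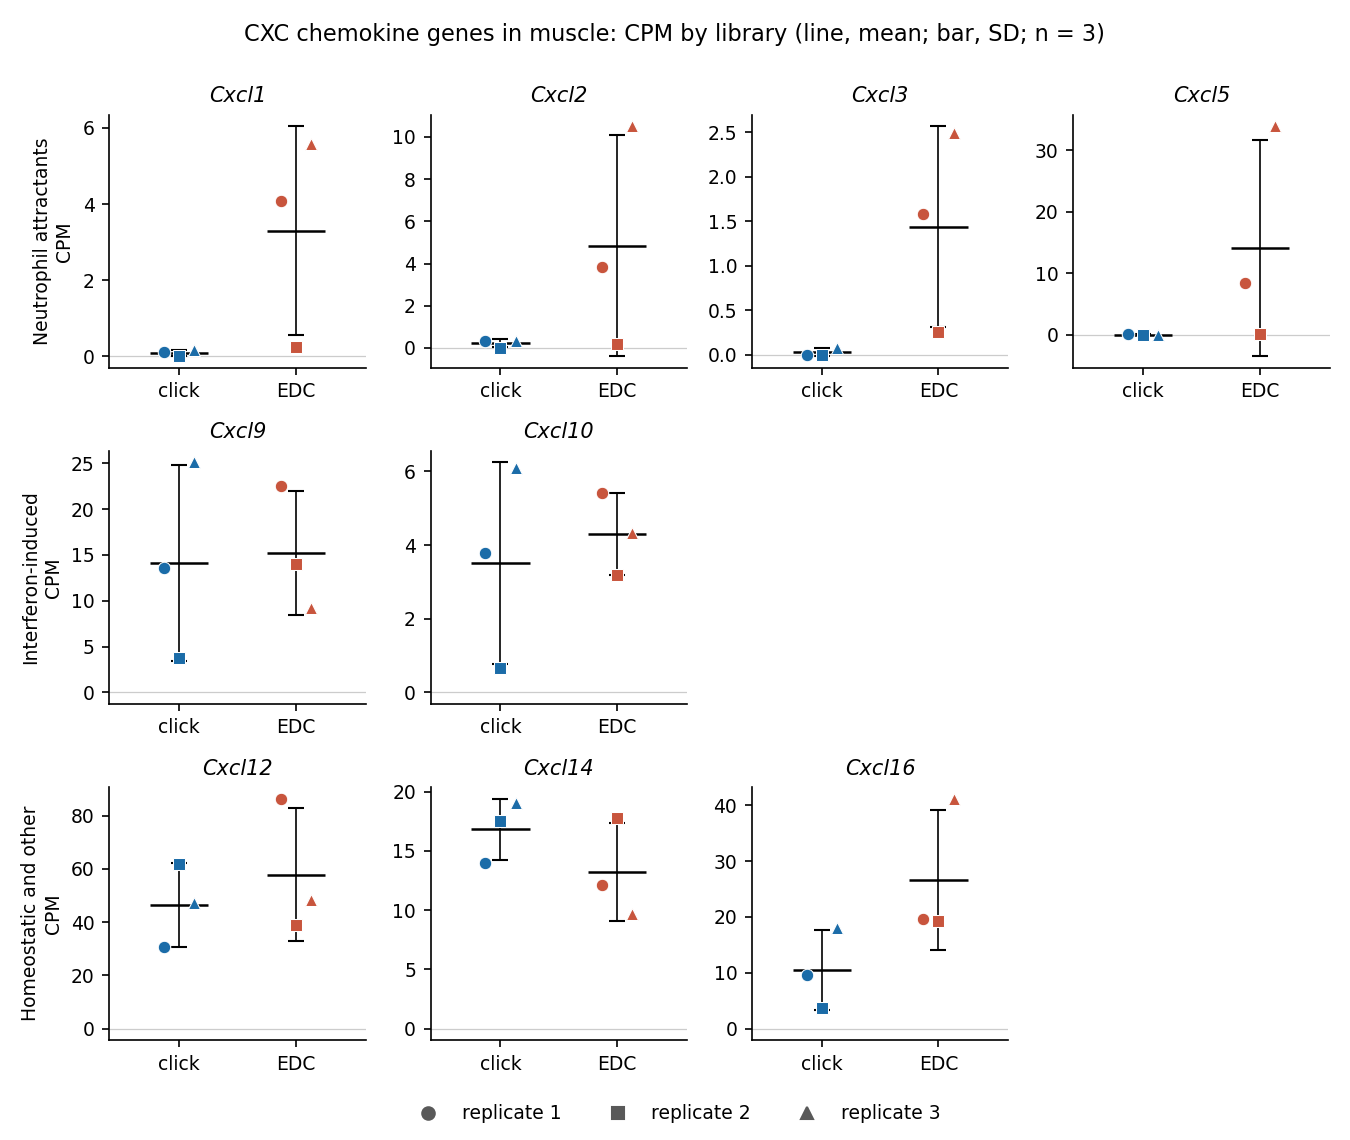
Level of each CXC chemokine gene in CPM (vertical axes, a separate linear scale per gene) in click (blue) and EDC (red) libraries; symbols give the replicate, the line the mean and the bar the SD (n = 3). The 4 neutrophil attractants are near 0 in every library except EDC replicates 1 and 3. The groups overlap in Cxcl2, Cxcl9, Cxcl10, Cxcl12 and Cxcl14.

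None of the differences passed the test across all genes. The default expression filter of edgeR, which asks for enough reads in at least 3 libraries, kept 15797 genes and 6 of the 9 members. Cxcl1, Cxcl3 and Cxcl5 did not pass it, because only 2 libraries held many reads. Of the 6 tested members, 0 were called by edgeR's quasi-likelihood test after Benjamini-Hochberg adjustment, where 0.00633% of all genes tested were called. Cxcl2 alone had an unadjusted edgeR p under 0.05, lower in click, as did 8% of all genes tested; 0 members and 7.22% of genes were higher at that level. Its log2 fold change was -4.42 (SE 1.47, edgeR adjusted p = 0.298), and the median over all genes tested was 0.02. The DESeq2 Wald test called Cxcl2 (log2 fold change -4.48, adjusted p = 0.0185) and no other member, against 2.28% of all genes called lower and 1.57% called higher in click by that tool. limma-voom called 0 members and 0 genes in all. In that fit 1 member, Cxcl16, had an unadjusted p under 0.05, as did 2602 of the 15797 genes in either direction. Its log2 fold change there was -1.46 (SE 0.565, limma-voom adjusted p = 0.288). Cxcl2 did not reach that level with limma-voom (log2 fold change -4.05, SE 3.08, adjusted p = 0.5).

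Fitted without the filter, over 25516 genes, the log2 fold change was -5.17 for Cxcl1 (SE 1.33, edgeR adjusted p = 0.360), -5.49 for Cxcl3 (SE 1.23, adjusted p = 0.359) and -9.19 for Cxcl5 (SE 2.55, adjusted p = 0.378). In that fit edgeR called 0 of 9 members (0.00392% of all genes were called), and all 4 neutrophil attractants were lower in click at an unadjusted p under 0.05, against 6.21% of all genes. DESeq2 without the filter called Cxcl1 (adjusted p = 0.000385), Cxcl3 (adjusted p = 0.00328) and Cxcl5 (adjusted p = 0.00941) as lower in click, and not Cxcl2 (adjusted p = 0.125). It called 2.09% of all genes lower in click. The same DESeq2 test therefore called Cxcl2 with the filter and not without it. Cxcl1, Cxcl3, Cxcl5 and Cxcl16, 4 of the 9 members, had click values that were all below the EDC values, where 9.04% of genes with at least 1 read did; 0 of the 9 had higher click values throughout, where 6.95% did. Among genes past the filter these shares were 12.4% and 9.84%. Members were chosen with earlier results of these data known, so this count carries no weight of its own.

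EDC replicate 2 stood apart from the other EDC libraries in all 4 attractants. Without it, the log2 fold change fitted without the filter was -5.74 for Cxcl1, -6.01 for Cxcl3 and -9.80 for Cxcl5 (edgeR adjusted p = 0.206, 0.222 and 0.206), and the fit with the filter gave -5.04 for Cxcl2. Without EDC replicate 3, the highest library, Cxcl2 gave -3.17 with the filter (edgeR adjusted p = 0.691) and Cxcl5 -7.42 without it (edgeR adjusted p = 0.746). Without click replicate 1 the remaining click libraries held 0 reads of Cxcl5. Over summed reads EDC was then at least 356-fold higher (3 reads over the group as the floor). Without click replicate 3 the remaining click libraries held 0 reads of Cxcl3, and EDC was at least 28.7-fold higher over summed reads. Both bounds leave out the spread between animals. EDC replicate 2 held only 4 of the summed EDC reads of Cxcl5 and 9 of those of Cxcl3.

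The high mt-Atp6 read class held both the highest and the lowest values of these genes. Among the EDC libraries, replicates 1 and 3, high in the attractants, were of the high class, and replicate 2 was of the low class. Within EDC the class and this difference cannot be told apart. Within the high class, click replicate 2 had 0 reads of all 4, and EDC replicates 1 and 3 had 4.08 and 5.57 CPM of Cxcl1 and 8.38 and 33.9 CPM of Cxcl5. Within the low class, click replicates 1 and 3 had 0.109 and 0.152 CPM of Cxcl1 against 0.249 in EDC replicate 2, and 0.326 and 0.329 CPM of Cxcl2 against 0.194. With the class as a covariate, Cxcl2 gave -2.96 on the log2 scale (SE 2.69, edgeR adjusted p = 0.644), and the 4 attractants without the filter had a median of -4.10. Each class holds only 1 library of one of the groups. The part of the class in the result was not tested further.

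Interferon-induced members did not separate the groups. Cxcl9 had 13.6, 3.75 and 25.1 CPM in click and 22.5, 14.0 and 9.16 CPM in EDC, so that both the highest and the lowest of the 6 values were in click. Its log2 fold change was -0.10 (SE 0.64, edgeR adjusted p = 0.949). Cxcl10 had 3.77, 0.656 and 6.10 CPM in click and 5.40, 3.18 and 4.32 in EDC, again with click replicate 2 lowest and click replicate 3 highest. Its log2 fold change was -0.29 (SE 0.69, edgeR adjusted p = 0.849). Both turned positive without click replicate 2, at 0.31 for Cxcl9 and 0.16 for Cxcl10.

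Among homeostatic and other members, Cxcl12 had the most reads of the family. Its levels were 30.5, 61.8 and 47.2 CPM in click and 86.4, 39.1 and 48.2 CPM in EDC, and the groups overlapped. The log2 fold change was -0.32 (SE 0.37, edgeR adjusted p = 0.685), and 0.09 without EDC replicate 1. Cxcl14, a chemokine expressed in resting epithelia and connective tissue, was the one member with a higher mean in click, at 16.8 ± 2.56 CPM against 13.2 ± 4.15 (SD, n = 3). Its log2 fold change was 0.35 (SE 0.27, edgeR adjusted p = 0.524), and it turned to -0.06 when library totals replaced TMM factors, which shifted the all-gene median by -0.47. Cxcl16, a transmembrane chemokine and scavenger receptor of macrophages and endothelium that binds Cxcr6, had 9.63, 3.71 and 18.1 CPM in click and 19.6, 19.3 and 41.2 CPM in EDC. All 3 click values were below the EDC values, the highest click library lying close to the lowest EDC library. The log2 fold change was -1.35 (SE 0.58, edgeR adjusted p = 0.332; DESeq2 adjusted p = 0.158).

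**Figure D2:**
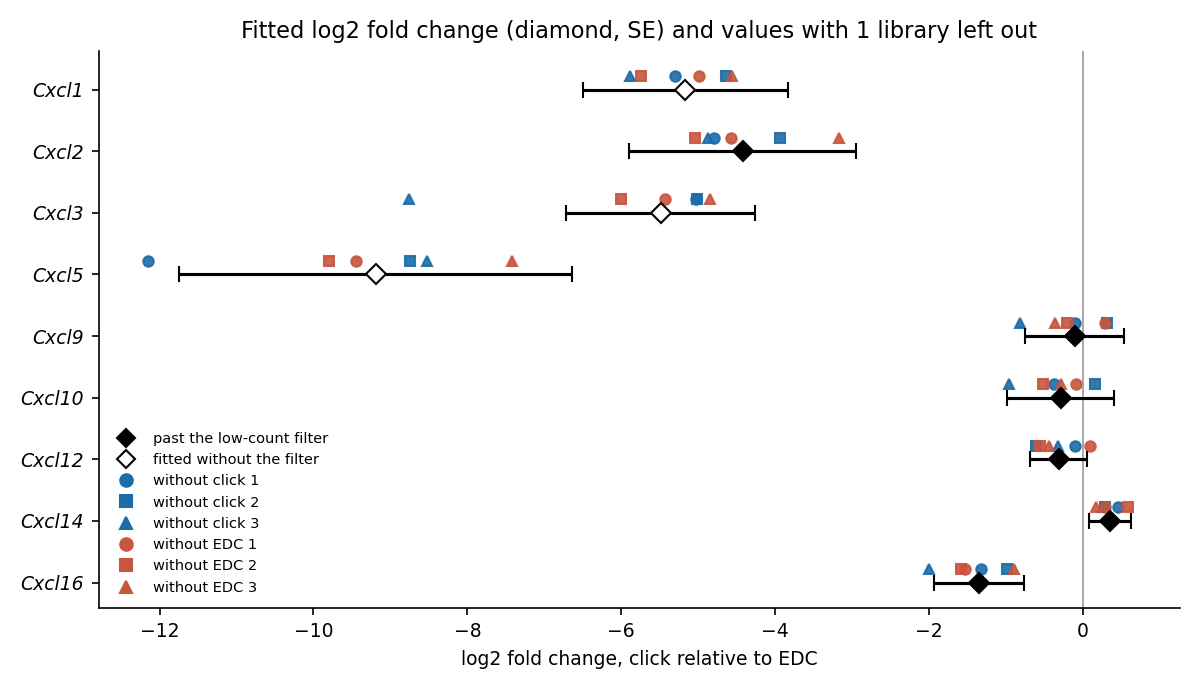
Log2 fold change of click relative to EDC (horizontal axis) for each member: diamonds with SE from all 6 libraries, filled where the gene passed the low-count filter and open where it was fitted without it, and coloured symbols above for fits with 1 library left out. The neutrophil attractants stay below -3 in each of these fits, and the other members lie between -2.0 and 0.59; Cxcl3 without click replicate 3 and Cxcl5 without click replicate 1 rest on click libraries at 0 reads and their size depends on the prior count.

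Set side by side by role, the median log2 fold change fitted without the filter was -5.33 for the 4 neutrophil attractants, -0.22 for the 2 interferon-induced members and -0.35 for the 3 homeostatic and other members, beside -0.04 for all genes. The gap between attractants and interferon-induced members was seen library by library. The mean centred log2 level of the attractants minus that of Cxcl9 and Cxcl10 was -1.86, -1.14 and -2.54 over the click libraries in replicate order, against 2.28, -0.97 and 4.22 over the EDC libraries. EDC replicates 1 and 3 were thus positive and EDC replicate 2 lay beside click. The gap to the homeostatic members was -1.23, -2.64 and -1.79 in click and 2.75, -1.01 and 3.92 in EDC. These values come from few genes, chosen with earlier results known, and no test was made of them.

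Levels of different members were compared per kilobase of exon. In click the order of medians was Cxcl14 (9.58 CPM per kb), Cxcl12 (5.77), Cxcl9 (4.51), Cxcl16 (3.19) and Cxcl10 (1.67), followed by Cxcl2 (0.158), Cxcl1 (0.0581), and Cxcl3 and Cxcl5, both with a median of 0. In EDC the order was Cxcl14 (6.62 CPM per kb), Cxcl16 (6.49), Cxcl12 (5.90), Cxcl9 (4.64), Cxcl5 (4.50), Cxcl1 (2.18), Cxcl10 (1.92), Cxcl2 (1.85) and Cxcl3 (0.452). The ranges of neighbours in the EDC order overlapped throughout, and in click Cxcl10 (at least 0.291) lay above Cxcl2 (at most 0.159). Cxcl5 had the widest range, from 0.0596 to 18.2 CPM per kb in EDC, and in EDC replicate 3 it was the highest of the 9 members.

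Members of the first 2 roles were alike over the 6 libraries, and those of the third were not. Pearson's r of log2 levels was 0.90 to 0.97 between the 4 attractants, 0.92 between Cxcl9 and Cxcl10, and 0.13 to 0.67 between an attractant and Cxcl9 or Cxcl10. Among the homeostatic and other members r was -0.19 for Cxcl12 with Cxcl14, -0.03 for Cxcl12 with Cxcl16 and -0.56 for Cxcl14 with Cxcl16. Cxcl16 was nearer to the attractants (0.71 to 0.85) and to Cxcl10 (0.81), and Cxcl14 ran against the attractants (-0.93 to -0.75). These describe 6 libraries that also differ in composition, and values near 0 reads weigh heavily in them. Of 11153 candidate genes, those most like the mean of the attractants were Ccl7 (r = 0.993), a monocyte-attracting CC chemokine, Kctd21, Zswim6, Rbms1 and Snx33 (0.988 to 0.992). Ccl7 had 60, 24 and 80 reads in click and 426, 83 and 763 in EDC. Those most like Cxcl9 and Cxcl10 were Osr2, Rbm45, Ulk3, Cenpj and Unc13b (0.985 to 0.992), and those most like the homeostatic group were Pcdhb22, Fam171b, Cmtm7, Dtx2 and Il17rc (0.992 to 0.996). The likeness is given as a description over 6 libraries drawn from many candidates.

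Receptors and the other ligands were examined by the same roles. Of 8 receptor genes 6 were tested and 0 were called by edgeR (none at an unadjusted p under 0.05, and 0 by DESeq2). Among all genes tested edgeR called 0.00633%, and 8% were lower and 7.22% higher at the unadjusted level. DESeq2 called 2.28% lower and 1.57% higher, so counts of 0 among 6 genes are near these shares. Of the 6 receptors, 4 were lower and 2 higher in click. Cxcr2, the receptor of the attractants on neutrophils, had 17, 54 and 43 reads in click and 128, 26 and 601 in EDC (fold change on the log2 scale -2.09, SE 0.97, edgeR adjusted p = 0.347). EDC replicate 3 was highest, and EDC replicate 2 lay among the click values, as it did for Cxcl2 but not for Cxcl1, Cxcl3 or Cxcl5. Cxcr1, a related receptor, did not pass the filter and had 60 reads in EDC replicate 3 and 0 to 9 elsewhere. Cxcr3, the receptor of Cxcl9 and Cxcl10, had 17, 0 and 137 reads in click and 61, 19 and 70 in EDC (log2 fold change 0.31, SE 1.28, edgeR adjusted p = 0.915). Cxcr6 gave 0.06 (SE 1.18), and it too had 0 reads in click replicate 2. Cxcr4, the signalling receptor of Cxcl12, gave -0.94 (SE 0.50, edgeR adjusted p = 0.390), Ackr3, its scavenging receptor, -0.13 (SE 0.26), and Ackr1, which takes up chemokines on venules and red cells, -0.29 (SE 0.57).

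Among 6 further CXC ligands 3 were tested and 0 were called by edgeR, with 1 at an unadjusted p under 0.05 in each direction. Of all genes tested, 8% were lower and 7.22% higher in click at that level. Pf4, platelet factor 4, had 118, 37 and 126 reads in click and 1166, 219 and 1481 in EDC, with no overlap. Its log2 fold change was -2.82 (SE 0.68, edgeR adjusted p = 0.298; DESeq2 adjusted p = 0.00184). Ppbp, its platelet neighbour in the gene cluster, gave -0.58 (SE 0.68, edgeR adjusted p = 0.683), with 8 to 50 reads in a library. Cxcl13, which draws B cells into follicles, went the other way. It had 0, 648 and 1156 reads in click and 20, 0 and 4 in EDC, so click replicates 2 and 3 were high and the other 4 libraries were near 0 (log2 fold change 6.57, SE 2.0, edgeR adjusted p = 0.298). Its receptor Cxcr5 had 4, 108 and 475 reads in click and 5, 7 and 10 in EDC and did not pass the filter. The summed level of the 5 B cell markers followed the same libraries, at 2.03, 76.9 and 160 CPM in click and 1.17 to 2.24 CPM in EDC, with Pax5 at 0 in the 4 low libraries. The part of such cells in the Cxcl13 values was not tested. Cxcl11 had 0 to 12 reads, Cxcl17 had 3 reads in EDC replicate 1 only, and Cxcl15 had 0 reads in all 6 libraries.

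**Figure D3:**
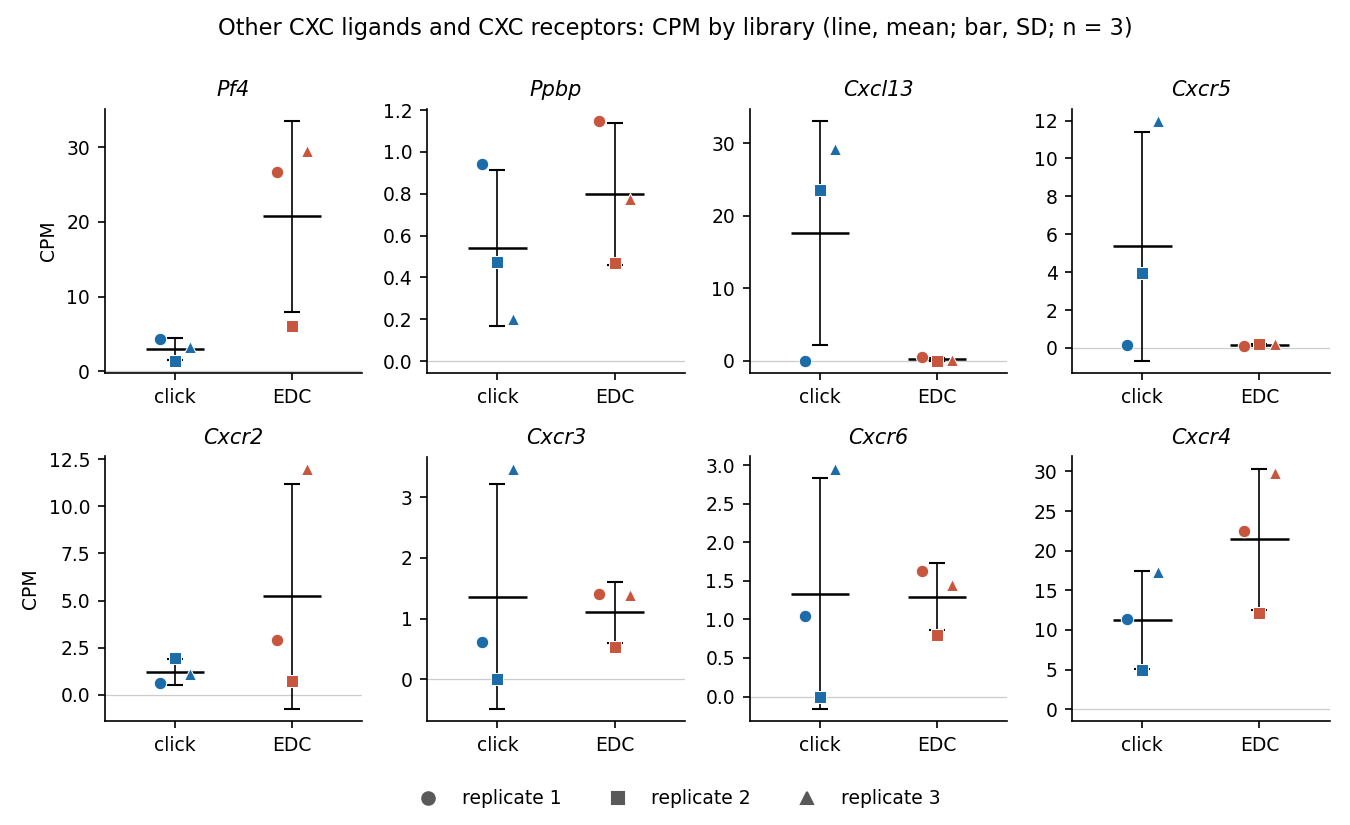
Level in CPM (vertical axes, a separate linear scale per gene) of other CXC ligands and of CXC receptors in click (blue) and EDC (red); symbols give the replicate, the line the mean and the bar the SD (n = 3). Pf4 is higher in all EDC libraries, Cxcr2 is highest in EDC replicate 3, and Cxcl13 and Cxcr5 are high only in click replicates 2 and 3.

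Proteases that process CXC chemokines were all tested, 0 of 5 being called by edgeR and 1, Mmp8, by DESeq2, which called 2.28% of all genes lower in click. Mmp8, the neutrophil collagenase, had 6, 5 and 0 reads in click and 209, 10 and 282 in EDC, again with EDC replicate 2 near click (log2 fold change -4.79, SE 1.36, edgeR adjusted p = 0.298; DESeq2 adjusted p = 0.00661). Mmp9 gave -1.87 (SE 1.13, edgeR adjusted p = 0.430), Adam17 -0.56 (SE 0.54), Adam10, which sheds Cxcl16 from the membrane, -0.27 (SE 0.87), and Dpp4, which trims the amino terminus of Cxcl10 and Cxcl12, 1.13 (SE 0.60).

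Genes listed around the induction of the attractants lay lower in click without passing the test. The list mixes inducers with Csf3 and with genes that restrain expression, such as Zfp36. A shared direction in it therefore does not measure upstream drive. Of its 15 genes 12 were tested, and all 12 had a log2 fold change below 0 (48.7% of all genes did). The median was -0.95, and 3 passed an unadjusted edgeR p of 0.05 (8% of all genes tested did, lower in click). Neither edgeR nor DESeq2 called any (0). Il1b, interleukin 1 beta, had 0, 5 and 69 reads in click and 445, 38 and 2145 in EDC (log2 fold change -4.72, SE 1.64, edgeR adjusted p = 0.298). Click replicate 3 was above EDC replicate 2, so the groups overlapped. Il1r1, its receptor, gave -1.13 (SE 0.47, edgeR adjusted p = 0.323), and Zfp36, which destabilises AU-rich mRNAs, -1.30 (SE 0.51, edgeR adjusted p = 0.312). Csf3 and Il6 did not pass the filter; Csf3, the neutrophil growth factor, had 23 and 54 reads in EDC replicates 1 and 3 and 0 in the other 4. Of 16 interferon signalling genes 14 were tested, 11 lower and 3 higher in click, with a median of -0.50; 1 passed an unadjusted edgeR p of 0.05, and neither tool called any (0). Ifnar2, an interferon receptor chain, gave -1.16 (SE 0.41, edgeR adjusted p = 0.298), Ifnar1 -0.68 (SE 0.30) and Irf7 -1.25 (SE 0.58). Ifng had 0, 0 and 6 reads in click and 13, 3 and 10 in EDC, and Ifnb1 had 0 reads in every library.

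Leukocyte markers differed between the groups in both directions, and neutrophil markers were high in the same 2 libraries as the attractants. For scale, 8% of all genes tested were lower and 7.22% higher in click at an unadjusted edgeR p under 0.05. DESeq2 called 2.28% lower and 1.57% higher, and 12.4% were lower and 9.84% higher without overlap. The summed level of 10 neutrophil markers was 9.29 to 12.0 CPM in click and 154, 14.1 and 193 CPM in EDC replicates 1 to 3. Of these markers 7 were tested, all 7 were lower in click with a median of -2.73, 4 passed an unadjusted edgeR p of 0.05, and edgeR called 0 and DESeq2 2. Csf3r gave -2.73 (SE 0.67), S100a8 -3.84 (SE 1.05) and S100a9 -4.23 (SE 1.33; edgeR adjusted p = 0.298 for each). Ly6g and Stfa2l1, 2 low-count markers of the list, were at 0 in all click libraries and in EDC replicate 2, and had 38 and 31 reads in EDC replicate 1. Other markers had reads in every click library, so these zeros do not show that neutrophils were absent there. S100a8 had 49, 79 and 43 reads in click replicates 1 to 3 and 70 in EDC replicate 2. S100a9 had 43, 158 and 32 reads in click and 72 in EDC replicate 2. Macrophage markers summed to 153 to 1130 CPM in click and 1690 to 4090 in EDC; all 10 were tested and lower in click, with a median of -1.99; the click values of 9 were all below the EDC values, 7 passed an unadjusted edgeR p of 0.05, and edgeR called 0 and DESeq2 5. In EDC replicate 2, where the attractants were near the click level, the macrophage sum was 1690 CPM, above every click library. Among them Fcgr1 gave -3.08 (SE 0.87), Mrc1 -1.30 (SE 0.39) and C1qa -1.76 (SE 0.55; edgeR adjusted p = 0.298 for each). T and NK cell markers summed to 9.99, 34.3 and 204 CPM in click and 14.9 to 23.3 in EDC, and click replicate 3, the highest, was also highest in Cxcl9 and Cxcl10. Click replicate 2, second highest in these markers, was the lowest of the 6 libraries in both ligands. Of these markers 9 were tested, 1 lower and 8 higher in click, with a median of 2.32; 4 passed an unadjusted edgeR p of 0.05, and edgeR called 0 and DESeq2 3. Cd8a, Trac and Cd3g gave 3.24 (SE 1.06), 3.29 (SE 1.19) and 3.14 (SE 1.14). The part of these cells in the chemokine levels was not tested. In whole muscle, more cells of a type and more RNA per cell cannot be told apart.

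**Figure D4:**
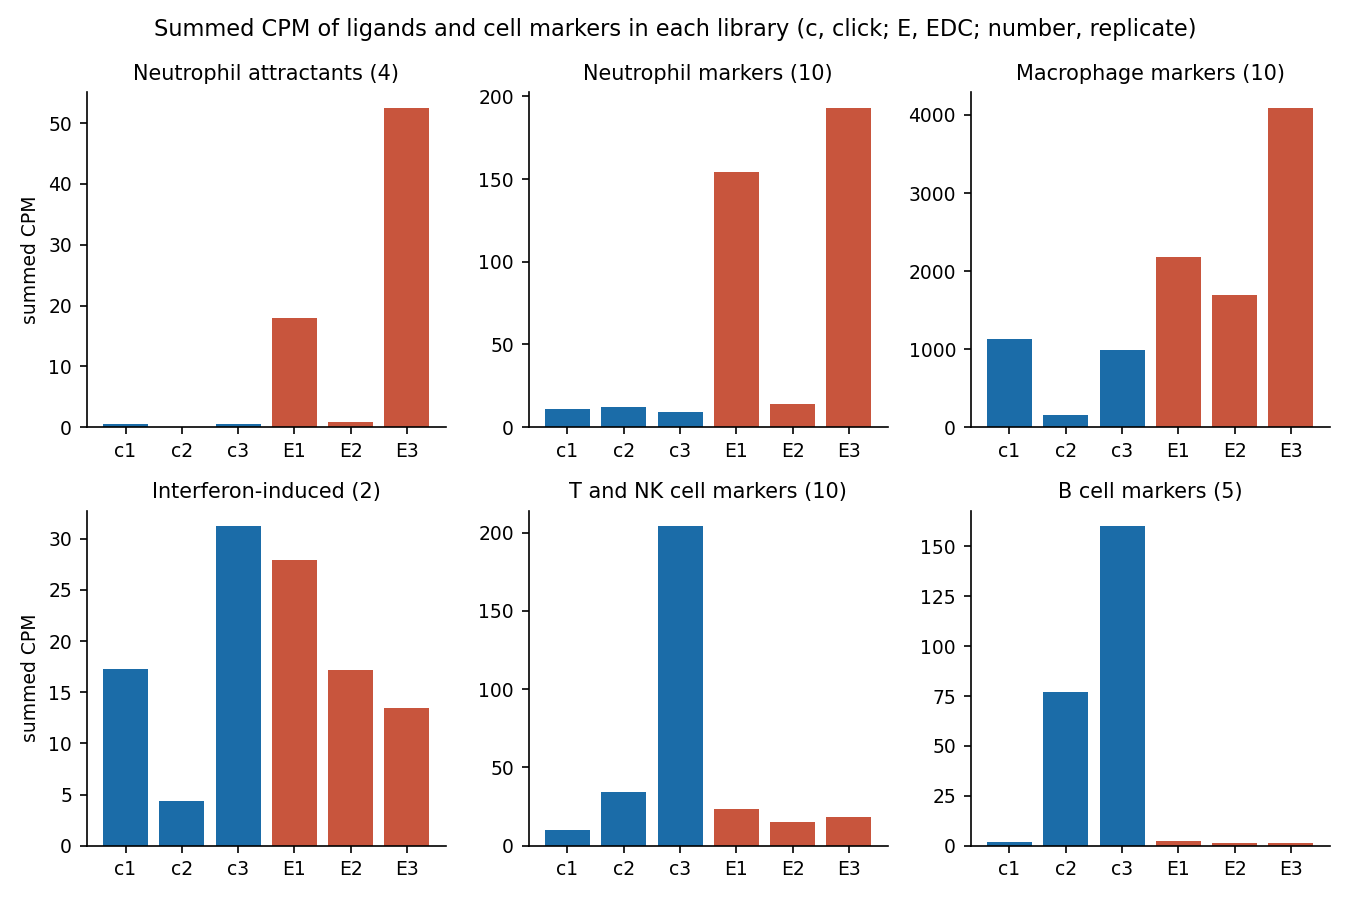
Summed level in CPM (vertical axes, linear from 0) of the 4 neutrophil attractants, the 2 interferon-induced members and 4 lists of cell markers in each library (c, click in blue; E, EDC in red; number, replicate). The attractants and the neutrophil markers are high in E1 and E3 and low in E2 and in all click libraries, and the B cell markers are high in c2 and c3.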

How the data were processed

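Muscle RNA of 6 mice was sequenced, 3 per group. The authors deposited read counts, whole numbers without normalisation, one line a gene, and per the submitters' processing notes the build is mm10. Of the aligner, counter, annotation and strand setting nothing is recorded here (not given in the sources used here). Lines without a symbol (3225 of 55335, 0.0631% to 0.0996% of reads) were left out. Where a symbol stood on 2 lines (80 symbols), the one with the larger sum was used. Totals were 34472421 to 39305779 reads.

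Groups and replicate numbers came from the labels. The series design speaks of 3 mice per group; if libraries were not separate animals, p-values measure technical spread. No pair of libraries agreed within sampling noise. The test was edgeR 4.0.16 (R 4.3.3), quasi-likelihood, two-sided, robust, TMM factors, default filter, Benjamini-Hochberg over 15797 genes, threshold 0.05; SE is the log2 fold change divided by the square root of F. DESeq2 1.42.0 and limma 3.58.1 (voom) were alternatives, with other scaling, no filter, a replicate block, the mt-Atp6 read class, male libraries alone and each library left out. Scores are means of log2(CPM + 0.0534), centred. The edgeR script was tested on simulated counts. Members and lists were chosen with earlier results of these data known.

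The rule for named genes takes all members, the ligands, receptors and proteases, up to 3 genes of smallest p from each list, and for each role the 5 genes (mean log2 CPM of at least 1) of highest r. Genes chosen after their values were seen are Ifng, Ifnb1, Csf3, Il6, Ly6g, Stfa2l1, Pax5, Krt1, Krt5, Krt14, Krt15, Lor, Art3 and Zmynd15. The lists are other CXC ligands, receptors, proteases, inducers (with Csf3 and some restraining genes), interferon signalling, neutrophil, macrophage, T and NK cell, B cell, fibroblast, endothelial, smooth muscle and pericyte, adipocyte, skin and skeletal muscle genes.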

Additional observations from a re-analysis of the deposited data

How the results depend on the processing

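With 3 libraries a group, 1 library could decide a call. The count of genes called in all was 1; it was 606 with DESeq2, 0 with limma-voom, 0 with the mt-Atp6 class in the fit, 0 in male libraries alone and 0 to 7 with a library left out. Of members 0 were called, except that DESeq2 called 1 with the filter and 3 without it. The attractant median over tested members (Cxcl2 alone with all libraries) was -7.16 to -3.17 with a library left out, and over all 4 attractants without the filter, settings chosen after seeing the data, -7.21 to -4.71. The interferon-induced median was -0.89 to 0.24 (Cxcl9 -0.811 to 0.31, Cxcl10 -0.9595 to 0.16). The homeostatic median, -0.32, was -0.79 with library totals, 0.32 in male libraries and -0.61 to 0.09 with a library left out. Signs turned for Cxcl14 (-0.0648, library totals), for Cxcl9 and Cxcl12 in male libraries (both 0.32) and without EDC replicate 1 (0.29 and 0.09), and for Cxcl9 and Cxcl10 without click replicate 2 (0.31 and 0.16); the cause was not tested. DESeq2 moved Cxcl2, Cxcl1, Cxcl3 and Cxcl5 past the threshold.

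With a replicate block 0 genes and 0 members were called, 3673 genes had an unadjusted p under 0.05 against 2404, and the fit without the filter gave Cxcl5 -9.12 (edgeR adjusted p = 0.124). Deviations of same-numbered libraries correlated at -0.047, 0.193 and 0.279 for replicates 1 to 3, and 4 of 6 libraries correlated best with their own number, so the numbers were not taken to pair the animals.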

Other observations

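Stromal cells are known to make Cxcl12 and Cxcl14, and their markers were examined as lists. Of 6 endothelial markers 3 were lower and 3 higher in click, with a median log2 fold change of 0.03, and their summed level was 189 to 229 CPM over the 6 libraries. Tek, an endothelial receptor kinase, gave 0.34 (SE 0.17, edgeR adjusted p = 0.363). Fibroblast markers summed to 510 to 2680 CPM in click and 2950 to 4740 CPM in EDC. Of these 8, 7 were lower in click, 5 without overlap (12.4% of all genes tested were), with a median of -0.88. Col1a1 and Col1a2, fibrillar collagen chains, gave -1.51 (SE 0.68) and -1.34 (SE 0.61), and Pdgfra, a receptor of connective tissue progenitors, gave -1.27 (SE 0.37, edgeR adjusted p = 0.298). EDC replicate 3 had the highest sum (4740 CPM) with 48.2 CPM of Cxcl12, and click replicate 2 the lowest (510 CPM) with 61.8. EDC replicate 1, highest in Cxcl12 (86.4 CPM), had a sum of 3890 CPM. Col1a1 and Col1a2 made up most of this sum, and the part of fibroblasts in the Cxcl12 level was not tested.

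Of 6 smooth muscle and pericyte markers 2 were lower and 4 higher in click (median 0.16). Myh11, the smooth muscle myosin heavy chain, gave 1.53 (SE 0.23, edgeR adjusted p = 0.298, DESeq2 adjusted p = 3.6e-05). Pdgfrb went the other way, at -0.82 (SE 0.22, edgeR adjusted p = 0.298, DESeq2 adjusted p = 0.0484). DESeq2 thus called 1 marker in each direction, where it called 2.28% of all genes lower and 1.57% higher. All 4 adipocyte markers were lower (median -0.65), and their sum was 3.69 CPM in click replicate 1 against 53.6 to 115 CPM in the other 5 libraries. Of 6 skin markers Krt10 alone was tested (log2 fold change 0.25, SE 0.37), and Krt1, Krt15 and Lor were at 0 in every library. Of 8 skeletal muscle markers 7 were higher in click, with a median of 0.61, 5 of them without overlap (9.84% of all genes tested were). Myh7, the slow-fibre myosin heavy chain, had 884, 1820 and 241 CPM in click and 1.6, 11.3 and 57.4 CPM in EDC (log2 fold change 5.39, SE 1.41, edgeR adjusted p = 0.298; DESeq2 adjusted p = 0.00333). Mb, myoglobin, gave 1.51 (SE 0.44, edgeR adjusted p = 0.298; DESeq2 adjusted p = 0.028), and Myh2, a fast oxidative myosin heavy chain, 1.82 (SE 0.71, edgeR adjusted p = 0.310). The part of fibre type in the chemokine levels was not tested.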
